A study of Mus musculus with 3 samples.

Results

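The colon and the presumptive ileum, the gut segments on either side of the caecum, were compared gene by gene in wild-type mouse embryos of the strain given as Bl6/C57 at E13.5. They are 2 of the 3 samples analysed in the series, 1 per tissue, and the caecum is the third. The small intestine had been divided into 3 portions of the same length, and the portion nearest to the caecum was taken as the ileum. The tissue was held in RNAlater, total RNA was extracted with RNeasy kits, and its polyadenylated fraction was made into TruSeq libraries that were read as pairs of 100 bp. The labels give the groups the same strain, age and genotype and no engineered allele or treatment, and they do not say how many embryos a sample holds. Of 33762 features in the deposited table, 17579 had at least 20 counts in the higher of the colon and ileum libraries and were compared.

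At this stage the gut is a tube of endodermal epithelium inside layers of mesenchyme, smooth muscle and migrating neural crest cells that become the enteric nervous system. The crest cells enter at the foregut and move toward the anus, so the ileum is reached before the colon. The small intestine goes on to absorb nutrients with villi and digestive enzymes, while the colon takes up water and ions beneath a layer of mucus. Hox genes mark position along the tube, and the differences in other genes are described here.

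Each tissue is represented by 2 count columns that come from 1 sample, and these differed by less than counting error, with a mean squared difference of 0.421 (ileum) and 0.438 (colon) times that of counting alone. They were averaged and read as 1 library, so no difference below has a replicate check and no test across samples was possible. Totals were 50079617 counts in the ileum and 50772855 in the colon, against 64439701 in the caecum, whose counts below are not scaled to the other libraries. In the ileum and colon mitochondrial transcripts took 2.84% and 2.62% of counts. A fold is a ratio of scaled counts, and the brackets after it give a 95% interval that covers counting error only. A count of 0 was set to 3 for this purpose, and the fold is then a lower bound, written as at least that value. Levels of different genes are compared only in RPKM, the authors' value per gene length and library depth. Xist and the Y-linked genes Ddx3y and Uty were counted in both libraries, and none of the 6 sex-linked genes compared lay beyond 2-fold. Within that limit Ddx3y had 1716 and 969 counts in the ileum and colon and was 1.82-fold (1.68–1.97) lower in the colon. Tsix was at 0.48 in log2 of colon over ileum, and Xist at 0.35 when scaled by plain library totals. The median of the 6 genes was -0.51. Whether the samples differ in their mix of male and female embryos was not tested.

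In the colon library 710 genes exceeded the ileum library by 2-fold or more, 4.04% of those compared, and 755 were at least 2-fold lower, 4.29%. Every count of list members below is to be read against these shares. A fold of 10 or more was reached by 84 genes on the colon side, 0.478%, and by 75 on the ileum side, 0.427%. The median log2 difference over all genes compared was -0.0042. Hox and Evx genes accounted for 16 of the higher and 12 of the lower genes, from 39 compared. Most of the genes that were apart were weakly expressed. Their median level in the library where they were higher was 0.654 RPKM on the colon side and 1.02 RPKM on the ileum side, against 6.68 RPKM over all genes compared. Only 49 and 70 of them reached 10 RPKM in that library, among 6928 such genes. The share of genes 2-fold or more apart went from 22.7% of the 2890 genes with 20 to 100 counts to 1.10% of the 1004 genes with 10000 counts or more. The caecum library, which entered no fold, lay between the other two at 456 of the 710 higher genes and 479 of the 755 lower ones.

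**Figure D1:**
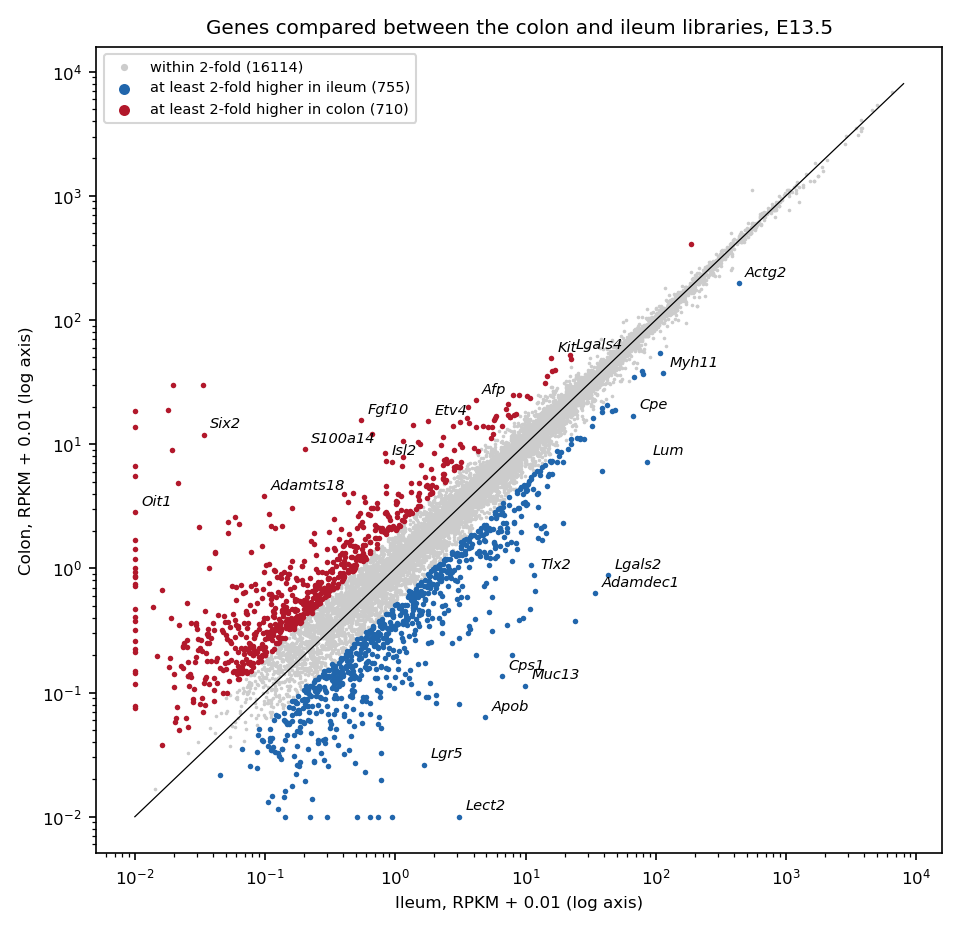
Level of each of the 17579 genes in the ileum (horizontal) and colon (vertical) libraries, as RPKM plus 0.01 on log axes, with 1 point per gene and genes at least 2-fold apart in scaled counts in colour. Points far from the diagonal are mostly at low levels, and few genes above 100 RPKM leave it, among them Actg2 and Myh11 on the ileum side.

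The genes other than Hox with the folds farthest from 1 were led in the colon by transcription factors and secreted or membrane proteins. Adamts18, a secreted metalloprotease, had 26, 796 and 1144 counts across ileum, caecum and colon and was 42.8-fold (29–65.8) higher in the colon than the ileum. Pou3f3, a POU homeobox factor known from brain and kidney, had 8, 372 and 402 counts in the same order and was 48.8-fold (24.6–114) higher. The forkhead factor Foxd2 had 6, 167 and 311 counts and was 50.4-fold (22.9–138) higher. In each of these 3 genes the caecum library was on the side of the colon. Barx2, a homeobox gene, had 3, 16 and 132 counts, and its colon level was 42.8-fold (14.3–210) that of the ileum. Il1rn, which encodes the antagonist of the interleukin 1 receptor, had 1, 2 and 108 counts. Cdh7, a cadherin, had 40, 24 and 464 counts, and Galnt5, an enzyme that starts mucin-type sugar chains, had 19, 192 and 343 counts. For Barx2, Il1rn and Cdh7 the caecum stayed low, near the ileum, and the high value was that of the colon library alone.

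Receptors and regulators of growth were also among these leading genes. Sstr5, a receptor of somatostatin, and Rxfp3, a receptor of relaxin 3, had 0 counts in the ileum and 66 and 46 in the colon, an excess of at least 21.4-fold for Sstr5 and at least 14.9-fold for Rxfp3. Cdkn2b, an inhibitor of cyclin-dependent kinases, had 0, 7 and 50 counts across ileum, caecum and colon. Rprm, known as a mediator of cell cycle arrest, was far more abundant, at 1.35 and 14.3 RPKM in the ileum and colon, a difference of 10.5-fold (8.56–13.1). Pou4f2, a POU factor of sensory and retinal neurons, had 5, 175 and 217 counts and was 42.2-fold (17.8–131) higher in the colon.

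On the ileum side, Slc4a10, a bicarbonate transporter, had 2324, 199 and 110 counts across ileum, caecum and colon and was 21.7-fold (17.9–26.6) lower in the colon. Fap, a membrane serine protease of fibroblasts, had 1188, 219 and 55 counts and was 22.2-fold (17–29.7) lower. Hmcn2, a hemicentin of the extracellular matrix, had 1200, 570 and 73 counts and was 16.9-fold (13.3–21.7) lower. Slc4a10 and Fap were already low in the caecum, whereas Hmcn2 stepped down at each border. Nlrp6, a sensor of the innate immune system, had 341, 90 and 16 counts and was 21.9-fold (13.3–38.8) lower in the colon. Tubal3, an alpha tubulin, had 88, 8 and 2 counts, and Nepn, which encodes the secreted protein nephrocan, had 72, 21 and 0 counts. Kcnv2, a potassium channel subunit, and Cntn5, a contactin of axons, had 74 and 48 counts in the ileum and 0 in the colon, so that the colon was at least 25.4-fold and at least 16.5-fold lower.

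**Figure D2:**
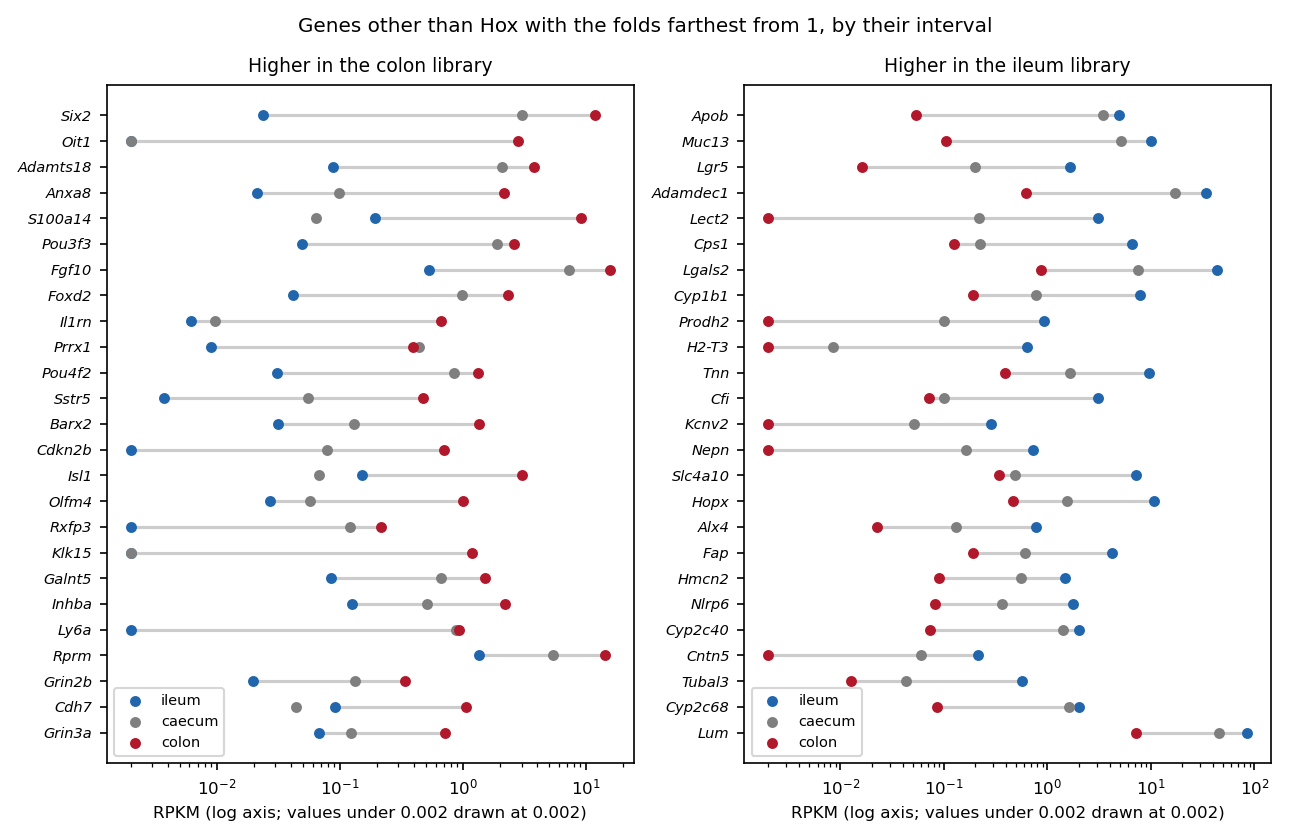
RPKM in the 3 libraries (log axis) of the 25 genes in each direction with the largest bound nearest to no difference, Hox genes left out, with 1 point per library. The caecum point lies between the other two or at one of them for all genes but S100a14, Isl1 and Cdh7, where it is below both, and Prrx1, where it is above both.

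Other genes are named for the size of their difference in RPKM among those at least 2-fold apart. Kit, the receptor of stem cell factor, had 4570, 9917 and 14696 counts across ileum, caecum and colon, at 15.7 and 49.6 RPKM in the ileum and colon, and was 3.12-fold (3.02–3.23) higher in the colon. Lgals4, a galectin of the intestinal epithelium, stood at 21.9 and 52.4 RPKM, a difference of 2.36-fold (2.26–2.47). Wfdc2, a secreted protease inhibitor, stood at 14.6 and 35.4 RPKM, and Ldb2, a cofactor of LIM homeobox proteins, at 16.9 and 39.9 RPKM. Serpinb1a, an inhibitor of neutrophil proteases, showed the wider gap, from 3.59 RPKM in the ileum to 19.8 in the colon, or 5.43-fold (4.84–6.1). Anxa1, a calcium-dependent phospholipid-binding protein, went from 8.05 to 24.9 RPKM, or 3.05-fold (2.84–3.27). Cgnl1, a protein of cell junctions, went from 8.82 to 24.9 RPKM. On the ileum side, Plac8 was at 38.6 and 6.08 RPKM, or 6.43-fold (5.85–7.09) lower in the colon, and Ifitm1, an interferon-inducible membrane protein, was at 48.9 and 19 RPKM, or 2.62-fold (2.44–2.81) lower.

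Mesenchymal homeobox and T-box genes, which give the wall of the gut its regional identity, differed in both directions. Of 44 genes in this list 29 were compared, and 13 were higher in the colon by 2-fold or more and 6 lower, against 4.04% and 4.29% of all genes, with a median log2 difference of 0.49. Prrx1 had 5, 312 and 220 counts across ileum, caecum and colon and was 42.8-fold (18.1–133) higher in the colon. Isl1, a LIM homeobox factor, had 19, 11 and 390 counts and was 19.9-fold (12.6–33.5) higher, and its paralog Isl2 had 92, 30 and 810 counts and was 8.56-fold (6.89–10.7) higher. Both Isl genes were low in the ileum and caecum libraries and high in the colon library. Nkx3-2 stood at 2.79 and 14.1 RPKM in the ileum and colon and was 4.99-fold (4.38–5.69) higher. Pitx1, the homeobox gene of the hindlimb, was highest in the caecum, at 310, 1968 and 1001 counts in the 3 libraries, and was 3.14-fold (2.76–3.58) higher in the colon than the ileum. Meox2, Eya4 and Pbx3 were higher in the colon by 3.81-fold (2.9–5.08), 6.09-fold (4.13–9.28) and 2.08-fold (1.99–2.18).

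The 6 lower members of this list ran the other way. Alx4, a paired-type homeobox gene, had 273, 60 and 8 counts across ileum, caecum and colon and was 35.1-fold (17.6–82.2) lower in the colon. Dlx5, a distal-less homeobox gene, had 25, 85 and 2 counts and was 12.9-fold (3.21–112) lower. Tbx3, a T-box repressor, stood at 18.8 and 8.62 RPKM, and Eya1 at 3.83 and 1.81 RPKM, differences of 2.21-fold (2.1–2.32) and 2.15-fold (1.9–2.42). The most abundant members, Meis2, Meis1 and Nkx2-3, a homeobox gene of the intestinal mesenchyme, stayed within 2-fold, at 0.21, -0.20 and -0.42 in log2 of colon over ileum.

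Other transcription factors of the mesenchyme were mostly alike. Of 45 compared from 50 listed, 6 were higher in the colon and 1 was lower, with a median log2 difference of 0.17. Twist1, a helix-loop-helix factor of mesenchyme, had 182 and 804 counts in the ileum and colon and was 4.29-fold (3.65–5.07) higher. Zfhx4 and Scx, the factor of tendon progenitors, were higher by 2.16-fold (2.1–2.22) and 2.35-fold (1.87–2.98). Osr2, the single lower member, had 674 and 99 counts and was 7-fold (5.67–8.74) lower in the colon. Foxf1a, the forkhead factor that answers hedgehog signals in gut mesenchyme, stood at 57.5 and 81.4 RPKM and within 2-fold.

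Genes of fibroblast growth factor (FGF) signalling were more often higher than lower in the colon library, both ligands and genes known to respond to the signal. FGF ligands bind receptor kinases, and the ETS factors Etv4 and Etv5 and the inhibitors of the Sprouty and Dusp families are induced by that signal. Of 27 genes compared from 34, 9 (33.3%) were higher in the colon by 2-fold or more and 3 (11.1%) lower, against 4.04% and 4.29% of all genes. The median log2 difference was 0.51. Among ligands other than Fgf10, Fgf1 had 46, 152 and 150 counts across ileum, caecum and colon and Fgf7 had 17, 16 and 46 counts, differences of 3.17-fold (2.26–4.51) and 2.63-fold (1.48–4.89). Fgf12, an intracellular member of the family, had 36, 114 and 114 counts. Among response genes, Etv5 was at 7.08 and 19.3 RPKM, Dusp6 at 14 and 30.9 RPKM and Spry4 at 1.44 and 2.97 RPKM in the ileum and colon. They were higher in the colon by 2.69-fold (2.53–2.85), 2.18-fold (2.06–2.3) and 2.04-fold (1.78–2.33). Flrt3, a membrane protein that binds FGF receptors, was higher by 2.79-fold (2.63–2.96). The receptors Fgfr1 and Fgfr2 stayed within 2-fold, at log2 differences of 0.24 and 0.11, and so did Spry1 at 0.51 and the ETS factor Etv1 at 0.02. On the other side, Fgf14 and Fgf13, which bind sodium channels in neurons, had 40 and 2 counts and 994 and 454 counts in the ileum and colon and were lower in the colon by 20.6-fold (5.34–176) and 2.25-fold (2.01–2.52). Klb, the co-receptor of endocrine FGFs, had 48 and 24 counts.

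In the WNT signalling list 2 of 45 compared genes (4.44%) were higher in the colon and 6 (13.3%) lower, against 4.04% and 4.29% of all genes, with a median log2 difference of 0.0011. The members apart were receptors and secreted or membrane regulators. R-spondins are secreted proteins that raise WNT signalling through Lgr receptors. Rspo3 had 1659, 950 and 267 counts across ileum, caecum and colon, at 13.8 and 2.2 RPKM in the ileum and colon, and was 6.39-fold (5.62–7.3) lower in the colon. Rspo1 was at 10.4 and 4.77 RPKM, or 2.22-fold (1.99–2.48) lower. Both R-spondins were highest in the ileum library. Fzd10, a WNT receptor, had 780, 562 and 117 counts and was 6.86-fold (5.64–8.4) lower in the colon. Rnf43 and Notum, feedback inhibitors that respond to WNT signalling, had 1438 and 445 counts and 54 and 12 counts in the ileum and colon, and Ascl2, a stem cell factor and WNT target, had 104 and 12 counts. All 3 were lower in the colon, by 3.33-fold (2.99–3.71), 4.63-fold (2.45–9.51) and 8.92-fold (4.89–17.8). Frzb, a secreted antagonist of WNT ligands, had 60 and 342 counts and was 5.54-fold (4.2–7.42) higher in the colon, and Ror1, a receptor of Wnt5a, was 2.7-fold (2.48–2.94) higher. Wnt5a itself, at 39 and 21.8 RPKM, and the antagonist Sfrp1, at 38.2 and 69.7 RPKM, lay within 2-fold.

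Ligands and antagonists of the BMP and TGF-beta family differed singly rather than together, with a median log2 difference of 0.07. Of 46 compared genes 4 (8.7%) were higher in the colon and 3 (6.52%) lower, against 4.04% and 4.29% of all genes. Inhba, the activin A subunit, had 12, 66 and 221 counts across ileum, caecum and colon and was 17.9-fold (10.04–35.2) higher in the colon. Gdf10, a ligand close to Bmp3, had 213, 6280 and 1502 counts and was 6.85-fold (5.93–7.95) higher, while Bmp3 itself had 580, 356 and 50 counts and was 11.9-fold (8.93–16.3) lower. The antagonist Nog, which encodes noggin, was 3.07-fold (2.31–4.12) lower in the colon. The receptor Bmpr1b was higher by 2.39-fold (2.07–2.77), and Bmpr1a, at 40.6 and 41.7 RPKM, lay within 2-fold.

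In the hedgehog list Shh, the ligand made by the epithelium, was the single member of 17 compared that lay beyond 2-fold. It had 3008 and 1510 counts in the ileum and colon and was 2.05-fold (1.93–2.18) lower in the colon. Its receptor and target Ptch1 was at 41 and 46.5 RPKM, a log2 difference of 0.16. In the retinoic acid list, 3 of 23 compared genes were higher in the colon and 3 lower. Rxrg, a retinoid receptor, had 14, 1674 and 97 counts across ileum, caecum and colon, and Crabp2, a binding protein of retinoic acid, had 120, 1796 and 294 counts. Both were highest in the caecum, and the colon was above the ileum by 6.73-fold (3.83–12.8) and 2.38-fold (1.92–2.97). Aldh1a3, an enzyme that makes retinoic acid, had 16 and 54 counts in the ileum and colon, a difference of 3.28-fold (1.85–6.14). Cyp26b1, an enzyme that degrades retinoic acid, was at 5.67 and 2.05 RPKM, or 2.8-fold (2.52–3.12) lower in the colon. The most abundant synthetic enzyme, Aldh1a1, was at 120.2 and 61.9 RPKM, a log2 difference of -0.98, just inside 2-fold. In the Notch list 3 of 20 compared genes (15%) were lower and none was higher, against 4.29% and 4.04% of all genes. Dll1 and Dll3, ligands found on differentiating cells, were lower by 2.04-fold (1.86–2.25) and 2.51-fold (2–3.17). None of the 15 insulin-like growth factor genes compared lay beyond 2-fold, although 1 did with the second count columns alone.

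**Figure D3:**
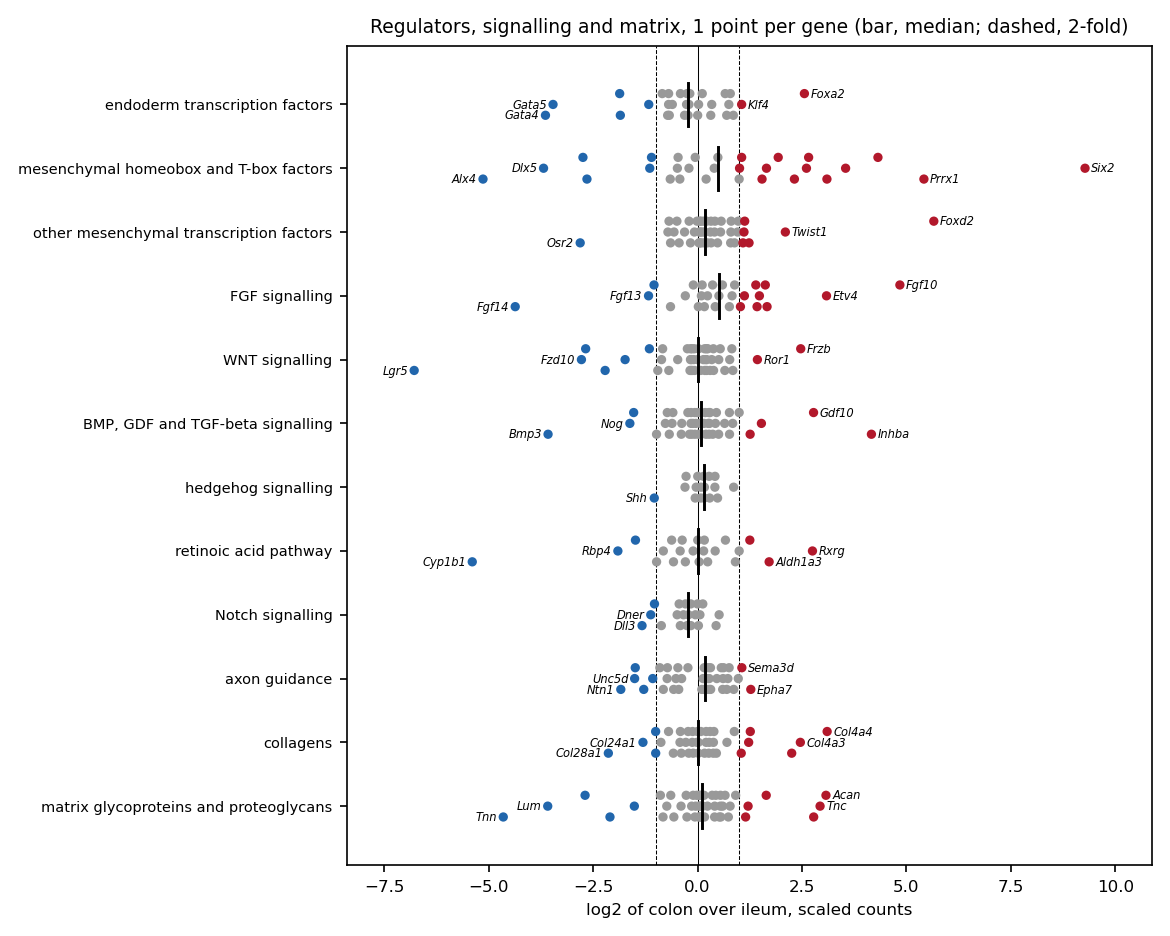
Log2 of colon over ileum in scaled counts for the compared genes of 12 lists of regulators, signalling pathways and matrix, with 1 point per gene, a bar at the list median and dashed lines at 2-fold. FGF genes and mesenchymal homeobox genes have medians of 0.51 and 0.49, while the WNT, retinoic acid and collagen medians are near 0.

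General markers of epithelium had similar summed levels in both libraries. The summed RPKM of the 35 pan-epithelial markers was 438 in the ileum and 495.5 in the colon, with no marker at 0, and Epcam and Cdh1 lay within 2-fold at log2 differences of -0.48 and 0.64. Of these 35 markers 4 were higher in the colon and 2 lower. In whole tissue, as sampled here, fewer cells of a type and less RNA per cell cannot be told apart, and this holds for every cell type below. Marveld3, a tight junction protein, had 30, 102 and 171 counts across ileum, caecum and colon and was 5.54-fold (3.74–8.46) higher in the colon. Cldn2, a claudin that forms a pore for cations, and Krt20, a keratin of differentiated gut epithelium, had 194 and 37 counts and 558 and 151 counts in the ileum and colon. The colon was lower by 5.39-fold (3.78–7.89) and 3.8-fold (3.17–4.58).

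Among transcription factors of the endoderm, more were lower than higher in the colon library. Gata4 and Gata5, zinc finger factors of the small intestine, had 702, 4 and 58 counts and 598, 94 and 56 counts across ileum, caecum and colon. They were lower in the colon by 12.4-fold (9.52–16.6) and 11-fold (8.35–14.7). Hnf4g and Isx, both intestinal factors, were at 5.73 and 1.6 RPKM and at 22.2 and 10.03 RPKM in the ileum and colon, and lower by 3.64-fold (3.23–4.11) and 2.25-fold (2.09–2.41). Foxa2, a forkhead factor of endoderm, had 68 and 412 counts and was 5.89-fold (4.55–7.73) higher in the colon. Klf4, a factor of differentiating epithelium and goblet cells, was 2.08-fold (1.86–2.32) higher. Cdx2, the homeobox factor of intestinal identity, stayed within 2-fold at -0.85, and Hnf4a did at 0.11. In all, 2 of 30 compared factors (6.67%) were higher and 5 (16.7%) lower, against 4.04% and 4.29% of all genes.

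Genes of stratified, urothelial and barrier epithelium formed the list with the highest share on the colon side. Of its 41 genes 19 were compared, and 12 were higher in the colon by 2-fold or more and 1 was lower, with a median log2 difference of 1.26. The minimum count had to be reached only in the higher library. Of the 41 genes 14 were at 0 in the ileum and 7 in the colon. Members with few ileum counts, such as Oit1 with 0 and Il1rn with 1, could enter only as higher in the colon. Their direction was fixed on entry, which limits the share and the median. Krt15, Upk1a, Sfn and S100a6 were above the minimum in both libraries. The summed level of the list was 59.1 RPKM in the ileum, 55.7 in the caecum and 108.5 in the colon. S100a14, a calcium-binding protein of epithelia, had 10, 4 and 501 counts across ileum, caecum and colon and was 48.7-fold (26.3–102) higher in the colon than the ileum. Anxa8, an annexin of stratified epithelium, had 2, 12 and 206 counts and was 100.1-fold (27.4–832) higher. Krt15, a basal keratin, had 51, 56 and 337 counts and was 6.42-fold (4.77–8.8) higher. These genes were low in both the ileum and the caecum. Upk1a, a uroplakin, had 103, 240 and 452 counts and was 4.26-fold (3.44–5.33) higher, and Sfn, which encodes stratifin, had 68, 80 and 232 counts and was 3.32-fold (2.52–4.41) higher. S100a6 and Perp, a desmosome-associated protein, were higher by 2.87-fold (2.49–3.31) and 2.39-fold (1.84–3.12). Dsc2, a desmosomal cadherin, was the lower one, at 9.55 and 3.36 RPKM in the ileum and colon.

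Some defining genes of stratified epithelium and bladder were under 20 counts in both libraries, and others were not. Trp63, the master factor of stratified epithelium, had 8 and 15 counts in the ileum and colon, and the basal keratin Krt5 had 0 and 3, while Krt14, the keratin that pairs with Krt5, had 43 and 94 counts. Of the uroplakins, Upk2 and Upk3a had 0 and 3 and 0 and 2 counts, while Upk1b and Upk3b, which mesothelium also makes, had 514 and 848 counts and 2495 and 3516 counts and lay within 2-fold. In the separate list of bladder and cloacal tissue 2 of 9 compared genes were higher in the colon and 5 were lower, with summed levels of 62.5 and 46.3 RPKM. Upk1a and Isl1 were the higher ones, and Alx4, Eya1, Ptgds, Shh and Tbx3 the lower ones. Shh and Tbx3, which the gut itself also makes, were at 22.3 and 11.04 RPKM and at 18.8 and 8.62 RPKM and weigh heavily in these sums. Of 24 genes of kidney, gonad and urogenital ducts 12 were compared, 3 higher and 2 lower in the colon, with summed levels of 26.8 and 41.2 RPKM. The higher ones were Six2, Gdnf and Cyp11a1, and the lower ones Eya1 and Gata4. Pax2, Pax8 and Lhx1 had 5 and 2, 9 and 6 and 2 and 1 counts in the ileum and colon, and Cyp11a1, the first enzyme of steroid synthesis, had 10, 22 and 86 counts across ileum, caecum and colon. Whether tissue next to the hindgut entered the colon sample was not tested.

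Mucus and goblet cell genes were sparse, with 15 of 25 compared, and 5 were higher in the colon and 2 lower. Tff1, a trefoil peptide, had 25, 64 and 96 counts across ileum, caecum and colon and was 3.73-fold (2.38–6.05) higher in the colon. Muc6 had 38, 114 and 172 counts and was 4.4-fold (3.08–6.43) higher. Agr2 and Clca3, secretory proteins of goblet cells, had 2 and 26 counts and 2 and 22 counts in the ileum and colon. With so few ileum counts these 2 could enter only as higher in the colon, which limits the share of higher members. Muc2, the main mucin of the adult intestine, had 10 and 12 counts, and Atoh1, the factor that specifies secretory cells, had 0 and 0. Olfm4, a secreted glycoprotein of crypts, had 4, 10 and 131 counts in the 3 libraries and was 31.8-fold (12.1–119) higher in the colon. It was the single higher member (4.35%) of 23 intestinal stem cell genes, and with 4 ileum counts it could enter only as higher. Of these 5 (21.7%) were lower, against 4.04% higher and 4.29% lower of all genes. Of the lower ones, Hopx, a homeodomain protein of reserve stem cells, had 1138, 208 and 50 counts and was 23.4-fold (17.6–31.7) lower.

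Brush border genes of the future villus lay beyond 2-fold on both sides, more of them on the side of the ileum. Of 23 brush border genes and peptidases compared, 9 were lower in the colon and 5 higher, and the median log2 difference was -0.50. Dpp4, a peptidase of the apical membrane, had 5017 and 1840 counts in the ileum and colon, and Mgam, which splits maltose, had 4593 and 2232 counts. They were lower in the colon by 2.81-fold (2.66–2.96) and 2.12-fold (2.01–2.23). Mep1a, a subunit of meprin, and Cdhr2, a cadherin that links microvilli, were lower by 3.87-fold (3.2–4.71) and 4.6-fold (3.22–6.73). Ggt1 and Xpnpep2, peptidases of the same membrane, had 32 and 196 counts and 25 and 145 counts. They were higher in the colon, by 5.95-fold (4.08–8.94) and 5.64-fold (3.67–9). Peptidases of the brush border therefore stood on both sides. Sis, Fabp6 and Slc10a2, defining genes of the mature small intestine and ileum, had 0 and 0, 2 and 1 and 1 and 0 counts, and Car1 and Aqp8 of the mature colon had 0 and 0 and 0 and 4.

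Carriers for nutrients and ions were apart in 6 of 25 compared genes. In the colon 2 (8%) were higher and 4 (16%) lower, against 4.04% and 4.29% of all genes. Slc5a8, a carrier of short-chain fatty acids in the adult colon, had 4, 10 and 68 counts across ileum, caecum and colon and was 16.5-fold (6.17–62.4) higher in the colon. Slc28a2, a nucleoside carrier, had 644, 124 and 56 counts and was 11.8-fold (9–15.8) lower, and Abcb1a, a drug efflux pump, had 620, 222 and 100 counts and was 6.38-fold (5.16–7.96) lower. Among fat absorption genes other than Apob, Fabp2 and Mogat2, which handle fatty acids in enterocytes, had 104 and 19 counts and 104 and 32 counts in the ileum and colon. They were lower in the colon by 5.63-fold (3.43–9.73) and 3.34-fold (2.23–5.14), and Abca1, which exports cholesterol, was 2.11-fold (1.94–2.3) higher. For the uptake of vitamin B12, Cubn, which encodes cubilin, had 1104, 1284 and 147 counts and its partner Amn had 84, 28 and 27 counts, and they were lower in the colon by 7.73-fold (6.5–9.24) and 3.2-fold (2.05–5.14). Lrp2, which encodes megalin, had 391 and 822 counts and was 2.04-fold (1.81–2.31) higher in the colon, the opposite direction to its partners.

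Some enzymes of the urea cycle and some cytochromes P450 were lower in the colon, and most members of both lists lay within 2-fold. Of 16 urea cycle and arginine genes, all compared, 4 were lower in the colon, none was higher, and the median log2 difference was -0.54. Otc, which makes citrulline, had 164, 18 and 9 counts across ileum, caecum and colon and was 18.8-fold (9.64–41.7) lower. Nags, which makes the activator of Cps1, had 25, 1 and 2 counts and was 12.9-fold (3.21–112) lower. The members within 2-fold included Oat, which links ornithine to proline, at 70.6 and 40.8 RPKM, and Asl at 5.84 and 6.95 RPKM. Of 21 listed cytochromes P450 compared 5 were lower in the colon, 1, Cyp11a1, was higher, and 15 lay within 2-fold, with a median log2 difference of -0.09. Of all 31 compared genes named Cyp 9 were lower and 1 was higher. Cyp3a13, a drug-metabolising cytochrome, had 248, 108 and 24 counts across ileum, caecum and colon and was 10.6-fold (6.98–16.9) lower in the colon. Outside the list, Cyp2c40 and Cyp2c68 had 207, 186 and 8 counts and 175, 180 and 8 counts and were lower by 26.6-fold (13.3–62.5) and 22.5-fold (11.2–53), but these are near-identical neighbours whose reads were not told apart here. The log2 difference of Cyp2c40 was -4.74, and -6.03 from the first count columns alone.

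Plasma proteins that the yolk sac and fetal liver also make were split between the tissues. Afp, alpha-fetoprotein, had 433, 3144 and 2400 counts across ileum, caecum and colon and was 5.39-fold (4.86–5.98) higher in the colon. Alb, albumin, the neighbour of Afp on chromosome 5, had 6, 8 and 36 counts. Itih2 had 2, 92 and 58 counts and was 28.2-fold (7.46–238) higher. Rbp4, the plasma carrier of retinol, had 470, 3393 and 129 counts and was 3.75-fold (3.08–4.59) lower in the colon, with the caecum far above both. Of 18 compared from 30 listed, 3 were higher and 4 lower. Liver-defining Ahsg and Fgg had 0 and 0 and 9 and 12 counts in the ileum and colon, and Ttr lay within 2-fold at -0.56.

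Some genes with large differences carry, just before their start, short words known to be bound by HNF4, CDX or GATA factors, and the windows below show where. The windows are the 150 bases before the start in RefSeq sequence of GRCm38.p6, another build than the mm9 of the expression table, written 5′ to 3′ on the strand of the gene. Capitals mark an HNF4 word (CAAAGTCCA) in Cyp2c40 and H2-T3, a CDX word (TTTATGG) in Lgals2 and Oit1, and a GATA word (AGATAA) in Lgals2. Coordinates are chr14:8378764-8378913 (minus) for Oit1, chr19:39812815-39812964 (minus) for Cyp2c40, chr17:36190152-36190301 (minus) for H2-T3 and chr15:78855530-78855679 (minus) for Lgals2. Oit1 was higher in the colon and the other 3 genes in the ileum. Of those with no counts given above, Oit1, a secreted protein, had 0 and 179 counts in the ileum and colon, H2-T3, a class I-like molecule, 86 and 0 counts, and Lgals2, a galectin, 1272 and 26 counts.
Oit1: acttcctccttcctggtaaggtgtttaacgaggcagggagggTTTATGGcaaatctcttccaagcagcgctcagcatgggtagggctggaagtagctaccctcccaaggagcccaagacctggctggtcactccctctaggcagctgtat
Cyp2c40: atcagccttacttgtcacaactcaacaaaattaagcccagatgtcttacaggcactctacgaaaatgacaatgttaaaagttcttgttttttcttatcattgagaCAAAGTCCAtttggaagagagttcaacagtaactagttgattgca
H2-T3: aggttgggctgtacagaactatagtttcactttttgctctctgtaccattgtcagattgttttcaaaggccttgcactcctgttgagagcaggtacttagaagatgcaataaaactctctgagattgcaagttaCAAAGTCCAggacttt
Lgals2: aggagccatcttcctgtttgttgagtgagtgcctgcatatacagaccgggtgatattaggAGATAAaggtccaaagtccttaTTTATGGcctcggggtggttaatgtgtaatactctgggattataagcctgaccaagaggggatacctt

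The words were searched on both strands from 250 bases before to 50 after the start of the 11733 compared genes that matched a RefSeq promoter, among them 456 higher and 520 lower in the colon. The HNF4 word (CAAAGTCCA or TGGACTTTG) was held by 0.877% of the higher, 1.15% of the lower and 0.418% of all promoters. For the CDX word (TTTATGG or CCATAAA) the shares were 2.19%, 2.88% and 1.55% in the same order, and for the GATA word (AGATAA or TTATCT) 8.55%, 9.62% and 6.44%. A word bound by group 13 Hox proteins (CTCGTAAA or TTTACGAG) was held by 0.219%, 0.577% and 0.128%. Each share of the higher and of the lower genes was above that of all promoters, on few promoters for most words, such as 4 higher and 6 lower for HNF4 and 1 higher and 3 lower for the Hox word. The lower HNF4 promoters include those of Cyp2c40 and Cyp2c68, near-identical neighbours that are not separate observations. No word contains another, and a promoter with several matches to a word was counted once. A match is a run of letters, and binding was not measured.

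Among genes of the hormone-producing cells of the epithelium, more were lower than higher in the colon library. Of 15 compared from 30 listed, 8 were at least 2-fold lower, 1 was higher, and the median log2 difference was -1.12. The other 6 lay within 2-fold, among them the factors Pax6 and Insm1 at log2 differences of -0.11 and -0.62. With a minimum of 100 counts 4 of the 8 lower genes remained. These were Rfx6, Chgb, Scg3 and Cpe, and all but Rfx6 are also made by neurons. Rfx6, a factor that enteroendocrine cells need, had 239, 216 and 42 counts across ileum, caecum and colon and was 5.86-fold (4.2–8.33) lower in the colon. Pcsk1, the convertase that cuts prohormones, had 22, 24 and 0 counts, and Cck, cholecystokinin, had 25, 148 and 4 counts. Sct, secretin, had 56, 132 and 20 counts and was 2.88-fold (1.7–5.07) lower. The colon was the lowest library for each of these 4 genes. Chgb and Scg3, proteins of secretory granules, were lower by 2.73-fold (2.12–3.54) and 2.51-fold (1.99–3.19), although neurons make them too. Cpe, a carboxypeptidase of peptide hormones that is also made by neurons and mesenchyme, was at 67.4 and 17 RPKM and was 4.03-fold (3.83–4.25) lower. Neurog3, which starts the endocrine fate, had 0 and 0 counts, and the colonic hormones Gcg, Pyy and Insl5 had 2 and 0, 3 and 0 and 0 and 1. Sst, somatostatin, stayed under the 20-count minimum with 0 and 19 counts. The higher member was Isl1.

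Enteric neurons were the list with the largest share of genes lower in the colon. Of 37 compared from 40 listed, 22 were at least 2-fold lower in the colon, 2 were higher, and the median log2 difference was -1.29, against 4.29% lower and a median of -0.0042 over all genes. The summed level was 251 RPKM in the ileum, 298 in the caecum and 138.5 in the colon. Structural and cytoskeletal genes of neurons were among them. Dcx, doublecortin, had 2306, 4026 and 656 counts across ileum, caecum and colon and was 3.62-fold (3.31–3.95) lower in the colon. Ina, an internexin, had 868, 1336 and 223 counts and was 4-fold (3.45–4.66) lower, and Nefl, a neurofilament, had 1711, 1535 and 551 counts and was 3.19-fold (2.9–3.52) lower. All 3 genes were lowest in the colon library. Stmn2 and Tubb3, proteins of growing axons, were at 26 and 11.2 RPKM and at 21.3 and 9.16 RPKM in the ileum and colon, differences of 2.36-fold (2.2–2.54) and 2.36-fold (2.18–2.56). Elavl4, an RNA-binding protein of neurons, had 4711 and 2410 counts and lay at the edge, at 2.01-fold (1.92–2.11).

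Transmitter genes differed more widely. Chat, which makes acetylcholine, had 61, 56 and 4 counts across ileum, caecum and colon and was 15.7-fold (5.83–59.4) lower in the colon. Th, which makes the precursor of dopamine and is found in transient enteric progenitors, had 86, 104 and 6 counts and was 14.8-fold (6.51–41.3) lower. Chrna3 and Chrnb4, subunits of the ganglionic acetylcholine receptor, were lower by 3.14-fold (2.87–3.44) and 2.83-fold (2.36–3.4), and Penk, the enkephalin precursor, by 3.19-fold (2.67–3.83). Nos1, which makes nitric oxide in inhibitory motor neurons, ran the other way. It had 148, 1202 and 356 counts and was 2.34-fold (1.93–2.85) higher in the colon, with the highest value in the caecum. Nxph2, a neurexophilin, had 0, 9 and 26 counts. Dbh and Ddc, enzymes of catecholamine synthesis, lay within 2-fold at 0.12 and 0.11, and Gap43, a protein of growing axons, at -0.55.

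Markers of crest progenitors and glia beyond 2-fold were all lower in the colon. Of 22 compared from 25 listed, 6 were lower in the colon, none was higher, and the median log2 difference was -0.44, with a summed level of 313 RPKM in the ileum and 209 in the colon. Tlx2, a homeobox factor of enteric crest cells, had 925, 678 and 70 counts across ileum, caecum and colon and was 13.6-fold (10.7–17.6) lower in the colon, and Fabp7, a fatty acid-binding protein of glia, had 840, 595 and 106 counts and was 8.15-fold (6.66–10.1) lower. Sox10, the factor of crest progenitors, was at -0.49, and Ret, the receptor of GDNF, at 0.14, both within 2-fold. Ednrb, the endothelin receptor of crest cells, had 15723 and 7941 counts in the ileum and colon and was 2.04-fold (1.98–2.09) lower. Of the ligands that guide the crest, Gdnf was at 7.64 and 16.6 RPKM and was 2.15-fold (2.01–2.29) higher in the colon, and Edn3 was at 16.3 and 23.8 RPKM, within 2-fold. Ntn1, which encodes netrin 1, and its receptor Dcc had 2581 and 744 counts and 172 and 63 counts, and were lower in the colon by 3.57-fold (3.29–3.88) and 2.81-fold (2.09–3.81). Axon guidance genes as a whole gave 2 higher (5%) and 5 lower (12.5%) of 40 compared, against 4.04% and 4.29% of all genes.

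**Figure D4:**
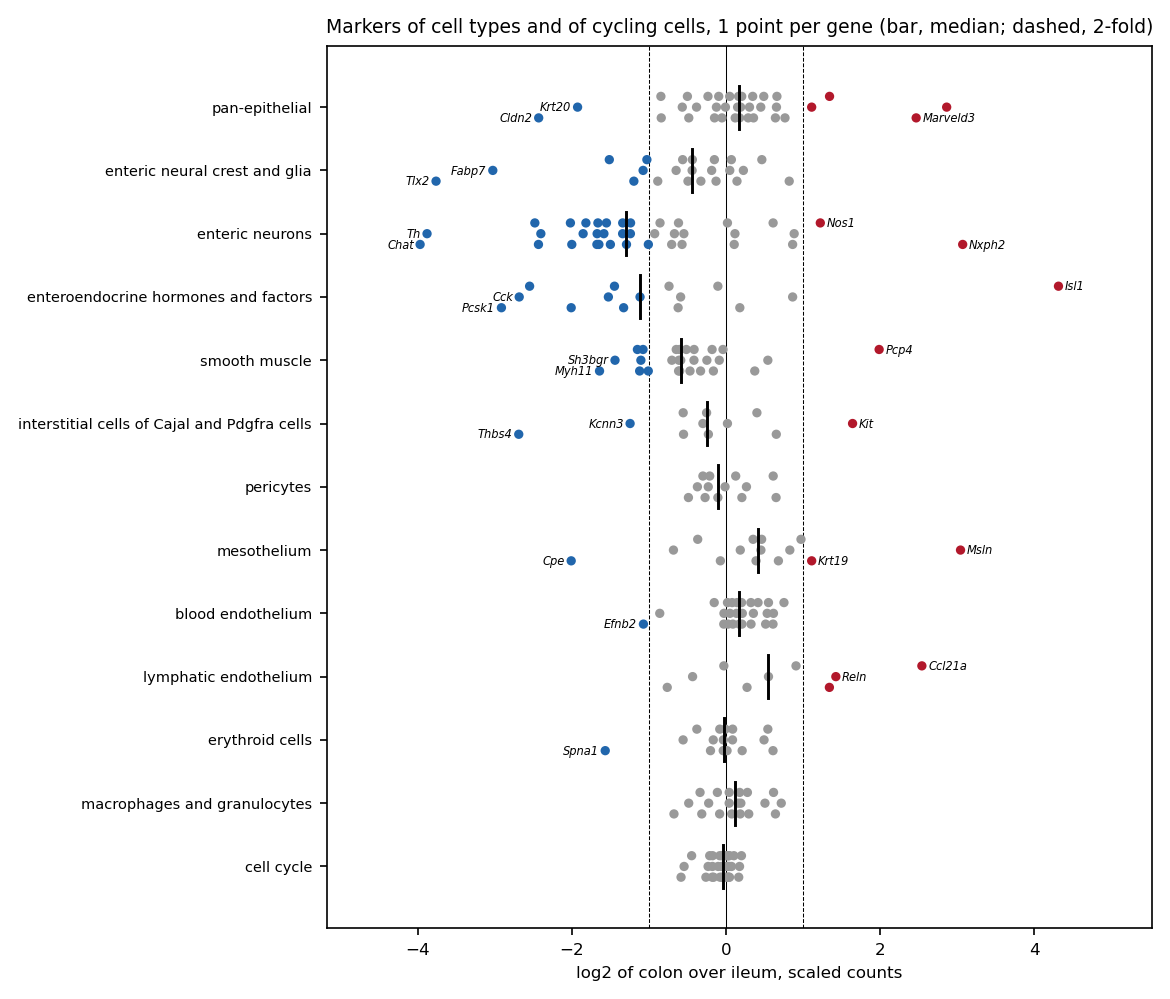
Log2 of colon over ileum in scaled counts for the compared markers of cell types and of cycling cells, with 1 point per gene, a bar at the list median and dashed lines at 2-fold. Enteric neurons and enteroendocrine genes have medians of -1.29 and -1.12 and smooth muscle -0.59, while the other medians lie between -0.44 and 0.55.

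Smooth muscle genes were more often lower than higher in the colon library. Of 27 genes, all compared, 7 (25.9%) were at least 2-fold lower and 1 (3.7%) was higher, against 4.29% and 4.04% of all genes. The median log2 difference was -0.59, and the summed level was 2728 RPKM in the ileum, 1509 in the caecum and 1827 in the colon. Myh11, the smooth muscle myosin, was at 114 and 37.2 RPKM in the ileum and colon and was 3.12-fold (3.06–3.18) lower in the colon. Actg2, the enteric actin, was at 432 and 198 RPKM, or 2.22-fold (2.18–2.26) lower, and Mylk, the kinase of the myosin light chain, at 79.3 and 37 RPKM, or 2.17-fold (2.14–2.21) lower. Acta2, Myl9 and Tpm1 were within 2-fold but on the same side, at log2 differences of -0.61, -0.59 and -0.47. Pcp4, a calmodulin-binding peptide of muscle, had 118 and 482 counts and was 3.97-fold (3.24–4.9) higher.

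Interstitial cells of Cajal, the pacemakers of the gut, arise beside this muscle and carry Kit. Besides Kit, their chloride channel Ano1 was at 22.1 and 35.3 RPKM in the ileum and colon, within 2-fold, and Etv1 was at 0.02 in log2. Thbs4, a thrombospondin, had 2184, 579 and 348 counts across ileum, caecum and colon and was 6.46-fold (5.76–7.25) lower in the colon. Kcnn3, a potassium channel of Pdgfra cells, had 228 and 99 counts and was 2.37-fold (1.86–3.03) lower. Pdgfra itself was at 43.8 and 37.4 RPKM. Mast cells also carry Kit, and their protease Cpa3 had 12 and 2 counts.

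Matrix genes lay beyond 2-fold in both directions. The collagen list gave 6 higher and 4 lower of 39 compared, with a median log2 difference of 0.02, and the glycoprotein and proteoglycan list 6 higher and 5 lower of 51, with a median of 0.10. Lum, lumican, a proteoglycan of collagen fibrils, had 8862, 6122 and 760 counts across ileum, caecum and colon, at 85.3 and 7.21 RPKM in the ileum and colon, and was 12-fold (11.1–12.9) lower in the colon. The tenascins, large glycoproteins of the matrix, were split. Tnc had 350, 3420 and 2750 counts and was 7.64-fold (6.83–8.56) higher in the colon, whereas Tnr and Tnxb had 274, 170 and 66 counts and 1674, 772 and 604 counts and were lower by 4.27-fold (3.25–5.68) and 2.85-fold (2.6–3.13). Matn4, a matrilin, had 384, 1340 and 2714 counts and was 6.87-fold (6.17–7.66) higher, and Hapln1, which links hyaluronan to proteoglycans, was 3.12-fold (2.87–3.4) higher. Col9a1, a collagen of cartilage, had 802, 2284 and 3936 counts and was 4.77-fold (4.42–5.15) higher. The cartilage collagen Col2a1 and the cartilage factor Sox9 lay within 2-fold at 0.38 and -0.31.

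Basement membrane collagens divided by subunit. The chains Col4a3, Col4a4, Col4a5 and Col4a6 were all higher in the colon, by 5.51-fold (2.29–16.1), 8.59-fold (3.69–24.4), 2.34-fold (2.25–2.43) and 2.4-fold (2.16–2.67). The common chain Col4a1 lay within 2-fold at -0.10. Of the 4, Col4a5 was the abundant one, with 3472, 15992 and 8348 counts across ileum, caecum and colon. Col6a1 and Col6a2, neighbouring genes of collagen VI, were at the edge of the threshold, at 2-fold (1.95–2.06) and 2-fold (1.95–2.06) lower in the colon, and Col6a3 was at -0.12. With plain library totals or DESeq2 size factors Col6a1 and Col6a2 came inside 2-fold, which left 2 members of the collagen list lower in the colon. Outside the list, Col6a6 had 32 and 12 counts in the ileum and colon and was 2.74-fold (1.38–5.85) lower in the colon. The fibrillar collagens Col1a1, Col1a2 and Col3a1 were within 2-fold at -0.13, 0.02 and 0.17. The laminin chains Lama3 and Lama2 were higher by 2.36-fold (2.04–2.74) and 2.24-fold (2–2.51).

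Few genes of blood vessels and blood cells lay beyond 2-fold, beside 8.33% of all genes compared and 2.29% of those with 1000 to 10000 counts. Of 27 blood endothelial genes 1 was lower and none was higher, with Pecam1 at 0.08 and Kdr at 0.21, and none of 13 pericyte genes lay beyond 2-fold. Lymphatic endothelium gave 3 higher of 9 compared. Reln and Mmrn1, both made by lymphatic cells, had 300 and 830 counts and 185 and 483 counts in the ileum and colon, but their defining factor Prox1 was within 2-fold at 0.27 and Lyve1 was at -0.76. Erythroid genes gave 1 lower of 16, with adult globin Hba-a1 at -0.03, and macrophage and granulocyte genes none of 20, with Csf1r at 0.04. In the mesothelium, the outer cover of the gut, Msln had 24, 16 and 204 counts across ileum, caecum and colon and was 8.26-fold (5.4–13.2) higher, while Wt1 was at 0.97 and Upk3b at 0.45.

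The lists of complement and of the major histocompatibility complex held larger shares beyond 2-fold than all genes, on few members each. In the complement list 4 of 19 compared genes were higher in the colon and 3 lower, or 21.05% and 15.8%, against 4.04% and 4.29% of all genes. Cfi, the protease that stops complement, had 320, 14 and 8 counts across ileum, caecum and colon and was 41.2-fold (20.6–96.2) lower, and Cd55, a membrane inhibitor of complement, had 1150, 886 and 3426 counts and was 2.9-fold (2.71–3.1) higher. Cd55 lies beside a near-identical copy, Daf2, whose reads were not told apart. Clu, clusterin, had 298, 2325 and 811 counts and was 2.65-fold (2.31–3.03) higher. Of 19 compared genes of the major histocompatibility complex 4 (21.05%) were lower in the colon and none was higher (2 were with the second count columns alone). The list median in log2 was 0.07. The 4 lower ones were H2-T3, H2-Ab1, with 24 and 10 counts in the ileum and colon, and 2 nearby features both named H2-Q2. The H2-Q2 features had 102 and 18 and 188 and 9 counts, and their reads were not told apart, so they are not separate observations. H2-T3, with 0 colon counts, could enter only as lower in the colon. H2-K1 and B2m were within 2-fold at -0.36 and -0.24.

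Few markers of pancreas, stomach and lung reached the 20-count minimum, whereas most markers of striated muscle and cartilage did. Of 15 pancreas genes 5 were compared, with Pdx1 at 0 and 0 counts and Ptf1a at 0 and 0 in the ileum and colon, and Rbpjl had 18 and 124 counts. Rbpjl overlaps Matn4, which lies on the other strand and had 384 and 2714 counts, and reads of the overlap were not told apart. Of 11 genes of stomach and lung 2 were compared. Sox2 was within 2-fold at -0.18 and Sox21 had 5 and 61 counts, while Barx1 and Nkx2-1 had 4 and 1 and 3 and 0. Of 25 genes of striated muscle and cartilage 16 were compared, 6 higher and 3 lower. The muscle factors Myod1 and Myog had 2 and 0 and 2 and 1 counts, and Actc1, the cardiac actin, had 240 and 46 counts and was 5.37-fold (3.9–7.53) lower in the colon.

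Of all genes compared 8.33% lay beyond 2-fold, but 2.29% of those with 1000 to 10000 counts and 1.10% of those with 10000 or more. At such shares, short lists of abundant genes, such as those of general cell functions, hold few or none beyond 2-fold. None of 36 cell cycle genes, 25 stress and hypoxia genes, 17 housekeeping genes or 31 genes of oxidative phosphorylation lay beyond 2-fold. Their median log2 differences were -0.03, -0.26, -0.12 and -0.05. Mki67, a marker of cycling cells, was at 0.17 and Top2a at -0.08. Imprinted genes gave 1 higher and 1 lower of 26, and the abundant Nnat was just inside the threshold, with 50530, 153954 and 103266 counts across ileum, caecum and colon. Its log2 difference was 0.99, and 1.01 with plain library totals.

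**Figure D5:**
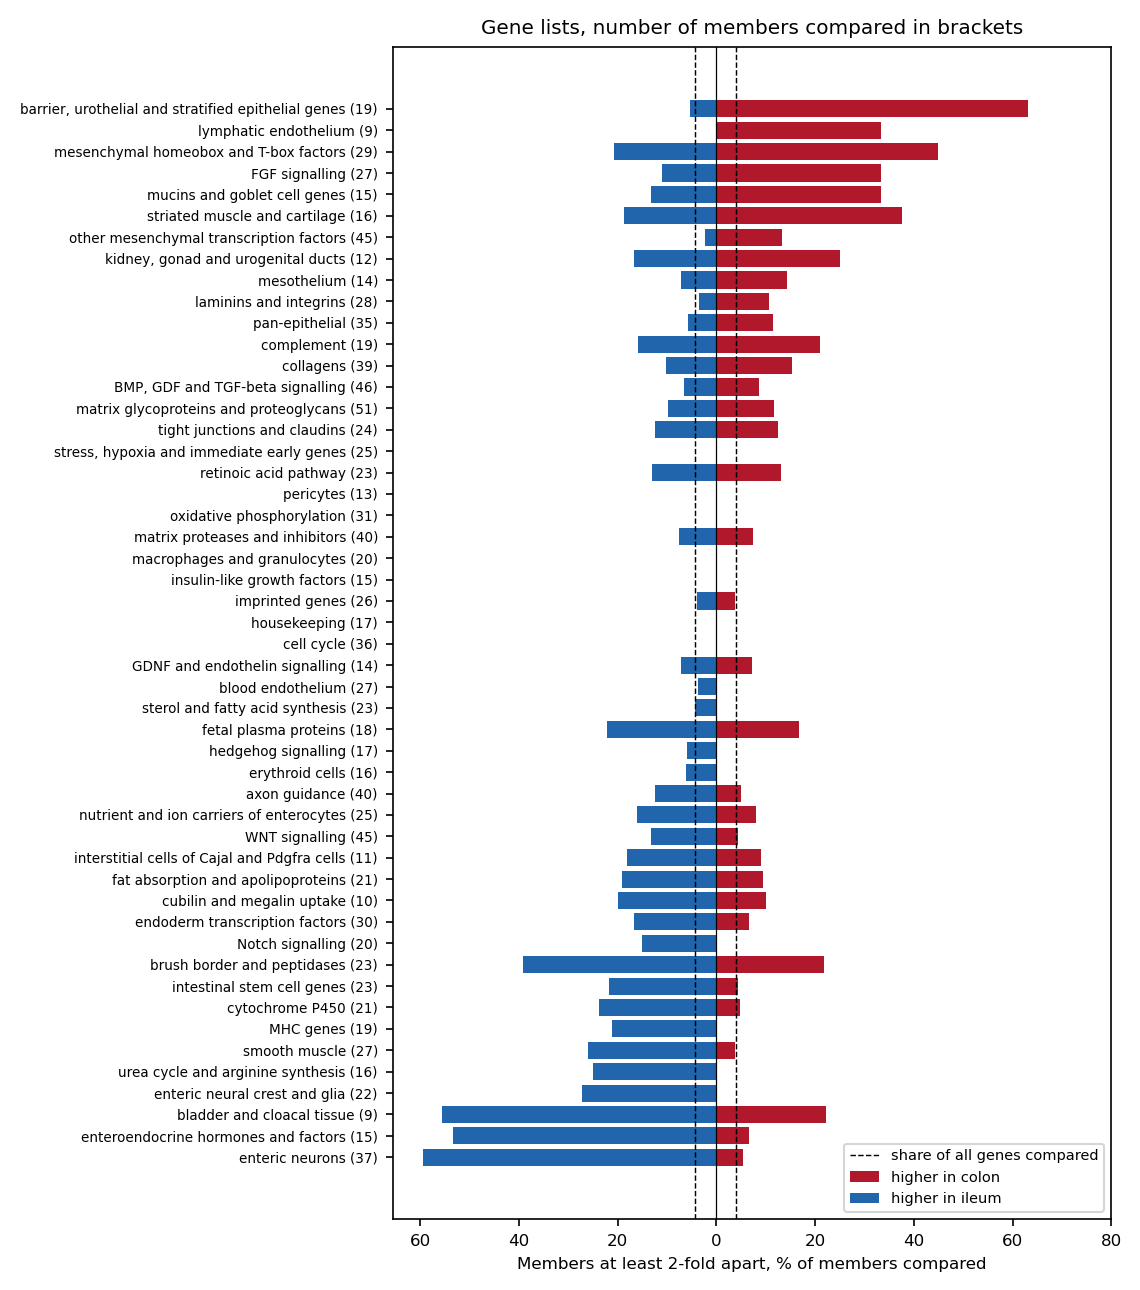
Share of compared members at least 2-fold higher in the colon (right, red) or in the ileum (left, blue), for lists with 9 or more compared genes, with dashed lines at 4.04% and 4.29% for all genes. Barrier and stratified epithelial genes reach 63.2% on the colon side and enteric neurons 59.5% on the ileum side. Barrier and stratified members with few ileum counts could enter only as higher in the colon.

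The threshold of 2-fold falls in a dense range of values. Just inside it on the colon side were Eaf2, with 34 and 70 counts in the ileum and colon, and Peli3, with 204 and 420, and just outside were Zdbf2, with 3950 and 8124, and Procr, with 318 and 654. On the ileum side Ifih1, with 352 and 181 counts, was just inside, and Celf5, with 252 and 130, just outside. The whole 95% interval lay beyond 2-fold for 347 of the 710 higher and 422 of the 755 lower genes.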

How the data were processed

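Polyadenylated RNA of the E13.5 mouse ileum, caecum and colon was measured in 1 sample per segment. The deposited table gives each gene 2 columns of expected counts and 2 of RPKM per segment, both computed by the authors and named per the file headers. Bowtie 0.12.7, DESeq and mm9 are named in the submitters' processing notes without their role. The counting program, its gene annotation and its use of strand are not given in the sources used here, so reads of overlapping genes and of near-identical copies were not told apart. The file headers number the 2 columns of a segment as rep 1 and rep 2, and whether these columns are runs or libraries is not stated. They differed by less than counting error in each segment.

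The expected counts deposited were averaged over both columns and rounded to whole counts. The RPKM values deposited by the authors were averaged and used for levels only. The colon and ileum libraries were scaled by TMM (edgeR 4.0.16, R 4.3.3). The fold of colon over ileum, with the exact Clopper-Pearson 95% interval of the conditional binomial, was computed for genes that reached 20 counts in either of them, and a gene was counted as apart at 2-fold. A count of 0 was set to 3. The computation was tested on simulated data. With 1 sample per group no test across samples was made. Counting error at these depths, 50079617 and 50772855 counts, sets the intervals.

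Named were the 25 genes per direction with the largest bound nearest to no difference, the 12 with the largest RPKM difference, and up to 8 called and 3 other members per list and direction, leaving out Hox, predicted, Riken, ribosomal, histone and mitochondrial names. Some genes this rule names are not reported here. Some other list members are named to show the level of a defining gene, and these were chosen after their values were seen. The 54 lists hold 1486 entries for 1355 symbols, of which 1346 matched by symbol and 3 by identifier, and 6 were not used here. The comparison, the members and the lists were chosen with earlier results of these data known. Promoter sequence is from RefSeq (GRCm38.p6). Alternatives were plain totals, DESeq2 1.42.0 size factors, each column alone, other minimum counts and folds, RPKM with pseudocounts, and leaving out predicted names.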

Additional observations from a re-analysis of the deposited data

How the results depend on the processing

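The numbers of genes at least 2-fold higher and lower in the colon (710 and 755) depended on the minimum count and on the threshold. With no minimum they were 1759 and 2002, and with a minimum of 100 counts 336 and 474. At 4-fold they were 244 and 229, and with the whole interval beyond 2-fold 347 and 422. From RPKM with a pseudocount of 1 they were 131 and 163, since a pseudocount shrinks the folds of weakly expressed genes. They were within 1.5 times the reported counts with plain totals (731 and 736), DESeq2 size factors (722 and 742), the first columns alone (721 and 774), the second columns alone (742 and 767), predicted and similar names left out (598 and 675) and RPKM with a pseudocount of 0.1 (486 and 538). Plain totals and DESeq2 size factors moved the median log2 difference by 0.0214 and 0.01. Of 418 named folds, 19 moved beyond their interval with plain totals, 4 with DESeq2 size factors, 3 and 2 with the first and second columns alone, and 91 and 273 from RPKM with pseudocounts of 0.1 and 1. No named gene called at 2-fold changed direction under these 6 alternatives. Of 108 counts of list members, 18 changed by over 1.5 times with a minimum of 100 counts and 56 from RPKM with a pseudocount of 1.

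No paired analysis was possible because each tissue has 1 sample. With 1 sample per tissue none was left out in turn. Depth limits the weakly expressed genes most, and 28 higher and 10 lower genes rest on a count of 0 in the lower library.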

Other observations

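Some genes that lie side by side were apart together. Runs of at least 3 neighbouring compared genes on the same side of 2-fold were listed from the table's mm9 coordinates. On chromosome 7, from 50950579 to 51194960, 7 features of the kallikrein cluster, serine proteases of epithelia, were higher in the colon, among them Klk10 with 14 and 113 counts in the ileum and colon and Klk13 with 23 and 88 counts. Klk15, at the end of the run, had 0 and 46. On chromosome 3, from 91884197 to 92093169, Lor, loricrin, and 3 copies of Sprr2a, all proteins of the cornified envelope of skin, were higher in the colon by 5.35-fold to 9.72-fold, with 4 and 22 counts for Lor and 8 and 64 for Sprr2a1. With so few ileum counts, Klk15, Lor and Sprr2a1 could enter only as higher in the colon. Their direction was fixed on entry, which limits what these runs show. The keratins Krt15, Krt19 and Krt14 formed another run on chromosome 11, from 99993072 to 100068862. On the ileum side were 4 Cyp2c genes on chromosome 19, 18-fold to 26.6-fold apart, 5 Naip genes on chromosome 13, sensors of bacterial proteins, 2.91-fold to 4.96-fold apart, and Slc4a10, Dpp4, Fap and Ifih1 on chromosome 2, from 61884519 to 62484312. The 8 Ugt1a genes of a colon run share their last exons, and the Sprr2a, Cyp2c and Naip genes are near-identical copies, so members of these 4 runs are not separate observations.

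Over all genes 8.33% were apart in either direction, and the families below were chosen after their values were seen. Of 65 compared genes of potassium channels and their partners, named Kcn, 15 were lower in the colon and 5 higher. Kcnip1 had 952 and 160 counts in the ileum and colon, Kcng1 had 1560 and 318 counts and Kcnk2 had 870 and 245 counts, and they were lower in the colon by 6.12-fold (5.17–7.29), 5.05-fold (4.47–5.71) and 3.65-fold (3.17–4.23). Of 17 compared glutamate receptor genes named Gria, Grid, Grik or Grin 5 were higher in the colon and 1 lower, with a median log2 difference of 0.19. Most compared genes of the enteric neuron list were lower in the colon. Grin2b had 8, 70 and 142 counts across ileum, caecum and colon, Grin3a had 54, 124 and 572 counts and Gria1 had 50, 151 and 243 counts, and the colon was higher by 17.2-fold (8.52–40.7), 10.3-fold (7.78–13.9) and 4.72-fold (3.47–6.54). With 8 ileum counts, Grin2b could enter only as higher in the colon. Of 13 keratins 6 were higher and 1 lower. Of 361 zinc finger genes named Zfp 1 was higher and 3 were lower, and of 171 ribosomal protein genes, copies included, none was beyond 2-fold.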
